A study of Homo sapiens with 9 samples.

Results

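The set described here holds 34 genes of cholesterol and fatty acid synthesis: the enzymes of the mevalonate and sterol steps, the proteins that sense sterols, a sterol carrier, and the enzymes that make, desaturate, elongate and activate fatty acids. The genes were listed by symbol. For each, the probe set annotated with that symbol alone was used, or the one with the highest mean over the arrays where there were several. This left 27 of the 34 genes with a value, among 14232 such genes on the arrays. ACAT2, CYP51A1, HSD17B7, SREBF2 and ELOVL5 shared their probe set with another gene and were given no value. FDFT1 and ACSL3 were not analysed here.

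The cells were PANC-1, a cell line derived from a carcinoma of the human pancreas, grown in RPMI-1640 medium with 10% foetal calf serum and 2 mM glutamine. The serum supplies sterols and fatty acids as lipoproteins in all 3 groups. The miR-520f cells received 20 nM of a synthetic miR-520f mimic, the negative control cells 20 nM of a control mimic, and the cells labelled non-transfected the lipid reagent Lipofectamine RNAiMAX without a mimic. RNA was taken at 72 h, with 3 biological replicates per group and 9 arrays in all. Mimics are synthetic RNA duplexes that cells load into the silencing complex in place of a natural microRNA. The lipid reagent was common to all 3 groups, and no group without it was measured, so nothing below bears on the reagent itself.

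Cells build cholesterol from acetyl-CoA by way of mevalonate, squalene and lanosterol, and long-chain fatty acids from the same acetyl-CoA through malonyl-CoA. Most genes of both pathways are switched on by the SREBP transcription factors. Sterol-rich membranes hold these factors in the endoplasmic reticulum, bound to SCAP and an INSIG protein. When sterols fall, SCAP carries them to the Golgi, where proteases release the active part. Cultured carcinoma cells use both pathways to make membranes.

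The labels name miR-520f without its arm, so both mature arms are shown, because the seed (bases 2 to 8, in capitals) is what a microRNA uses to find its targets. The arms lie at chr19:53682213-53682234 and chr19:53682173-53682194 on the plus strand (RefSeq, GRCh38.p14). The relatives miR-520c-3p and miR-373-3p are given for comparison.
hsa-miR-520f-3p: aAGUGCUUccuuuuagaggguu
hsa-miR-520f-5p: cCUCUAAAgggaagcgcuuucu
hsa-miR-520c-3p: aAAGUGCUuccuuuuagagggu
hsa-miR-373-3p: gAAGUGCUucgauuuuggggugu
The seed AGUGCUU belonged to 1 of 2370 named mature human microRNAs in that table, miR-520f-3p itself, while miR-520c-3p and miR-373-3p shared the seed AAGUGCU. Sites for these seeds in the genes of the set were not searched here.

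Values are log2 intensities after RMA, a method that subtracts background, equalises the distributions of the arrays and gives each probe set 1 value from its probes. They ran from 2.23 to 13.6 over the whole table, with array medians between 4.22 and 4.34. A difference of 1 on this scale is a doubling of signal, and levels of different genes cannot be set against each other because each probe set responds differently. Keratin, duct and epithelial markers of the line differed in level, with KRT8 between 11.3 and 11.8 on all 9 arrays. KRT18, KRT19, SOX9 and EPCAM lay between 7.56 and 9.56, CDH1 between 5.39 and 6.67, and KRT7 between 3.43 and 3.56. The summed log2 level of the 7 epithelial markers was 56.1 to 56.6 with miR-520f, 53.5 to 54.2 in the negative control and 53.8 to 54.9 in non-transfected cells. Members of that list went opposite ways: EPCAM (1.68 against the negative control and 1.57 against non-transfected cells) and CDH1 (1.15 and 1.07) rose against both controls and KRT19 fell (-0.68 and -0.75), while KRT18 rose against non-transfected cells alone (0.41) and KRT7, KRT8 and SOX9 were not called. The part of these shifts in the results below was not tested. Measured markers of acinar, endothelial, leukocyte and hepatocyte cells stayed between 2.81 and 4.51. All of them except APOA1 (4.04 to 4.51) lay under every array median. Fibroblast markers were at or under 3.79, except COL1A1 at 7.06 to 8.23. Over all genes, negative control replicate 1 had the widest root mean square deviation from its group mean, at 0.169. The remaining arrays had 0.0698 to 0.131. RNA came from whole cultures, so less RNA in every cell and fewer cells that express a gene cannot be told apart.

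A gene was called where limma gave a Benjamini-Hochberg adjusted p under 0.05 over all 14232 genes. Cholesterol and fatty acid genes were called more often than all genes together, and more of them were lower than higher with miR-520f. Against non-transfected cells, 10 of the 27 genes fell, 1 rose and 16 were not called, so 40.7% were called where the background over all genes was 27.6% (14.5% higher and 13.1% lower). Against the negative control, 11 fell, 4 rose and 12 were not called, 55.6% against a background of 28.1% (15.4% higher and 12.6% lower). The set was brighter, with a median of gene means of 6.93 beside 4.53 over all genes. The dimmest 25% of genes held 0 of the 27. Without those genes, 3923 were called against non-transfected cells, beside 3927 with them. Against the negative control 4063 were called, beside 3996. Fewer genes were tested, so the share called among brighter genes was above these backgrounds. The set exceeded that share by less. The median log2 fold change of the set was -0.14 and -0.08 in these comparisons, beside -0.03 and -0.03 over all genes. The comparisons share the miR-520f arrays and are not independent of each other.

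The submitters' design counted a gene as a miR-520f target where it changed against both controls. Of the 27 genes, 6 were lower than both controls and 0 were higher. These were INSIG2, STARD4, SC5D, DHCR7, FADS1 and FADS2. Over all genes 8.61% were lower and 9.37% higher than both controls, and 18.0% were one or the other. The 22.2% of the set called against both is near that background, and all 6 calls were falls. All miR-520f arrays lay below all control arrays in 6 of the 27 genes, or 22.2%, against 12.1% of all genes. They are the same 6 genes, so this adds no separate support. With arrays centred on the median, 5 of the 27 were lower and 1 was higher than both controls, the gained rise being EBP and the lost fall FADS2. Without miR-520f replicate 3, INSIG2, SC5D and FADS1 were the 3 genes left.

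**Figure D1:**
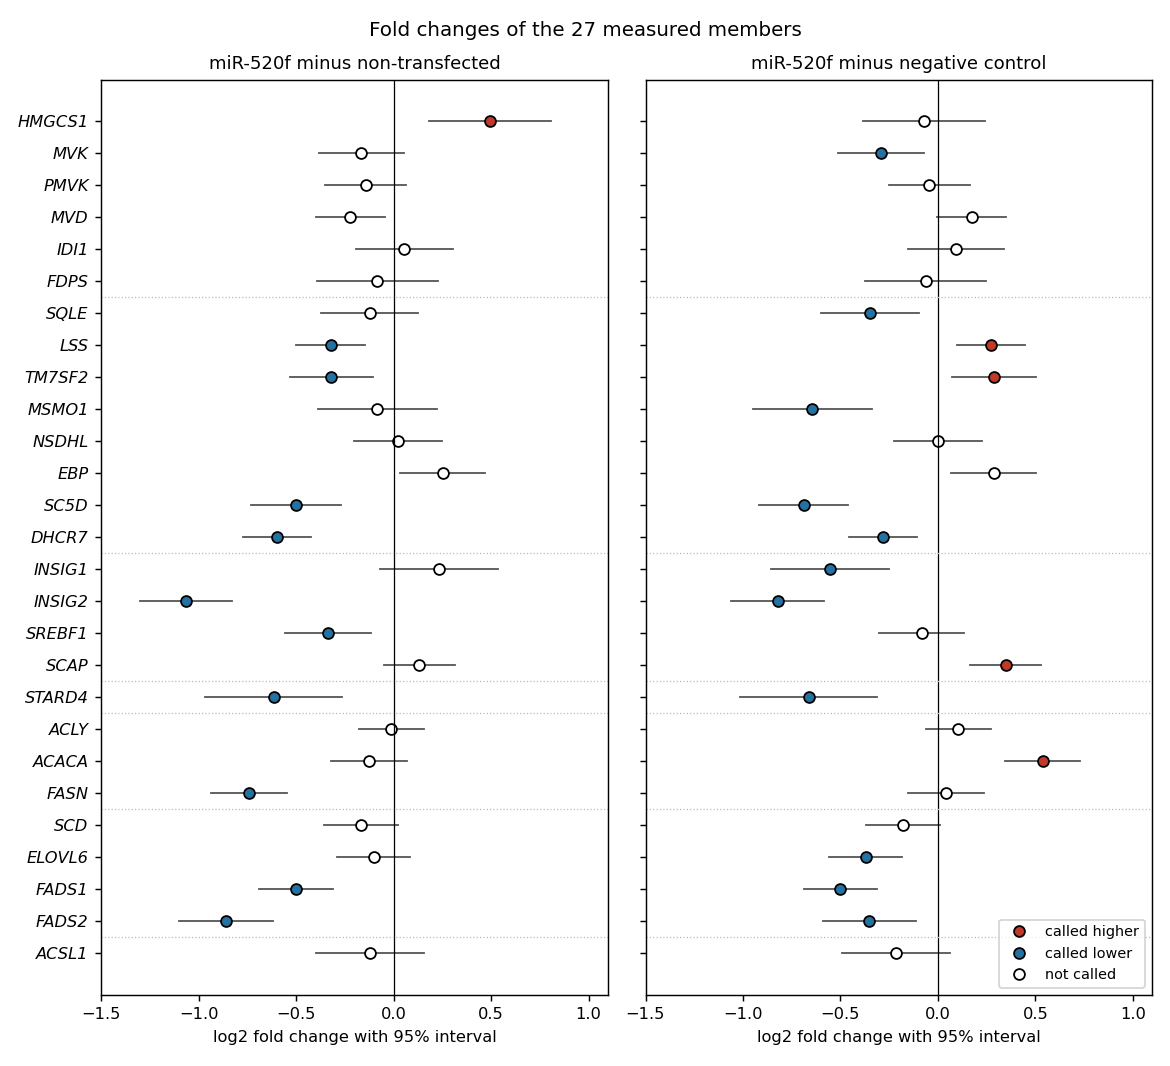
Log2 fold changes of the 27 measured genes (rows, in groups by role separated by dotted lines) for miR-520f minus non-transfected cells (left) and miR-520f minus negative control (right). Bars are 95% intervals of the limma fit over 9 arrays, and filled points passed the adjusted threshold. INSIG2 has the lowest value in both panels, and LSS and TM7SF2 are called on opposite sides of 0.

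INSIG2, which holds SCAP and the SREBP factors in the endoplasmic reticulum, showed the largest fall of the set in each comparison. Its probe set (2502424) read 3.86, 3.93 and 3.73 on the miR-520f arrays, against 4.80, 4.69 and 4.49 in negative control and 5.09, 4.89 and 4.74 in non-transfected cells. All miR-520f arrays lay below all control arrays, by more than the range within any group, and the control groups overlapped each other. The log2 fold changes were -0.82 against the negative control (SE 0.11, limma adjusted p = 0.000171) and -1.06 against non-transfected cells (SE 0.11, limma adjusted p = 2.90e-05). On the linear scale the signal was 56.6% of that in negative control and 47.8% of that in non-transfected cells. The miR-520f values lay under every array median (4.22 to 4.34), and these are percentages of signal and not of RNA. The controls differed by -0.24 for the negative control minus non-transfected cells, which was not called (limma adjusted p = 0.182).

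INSIG1, the other INSIG protein and itself a gene that SREBP factors switch on, behaved differently. It read 6.62, 6.23 and 6.59 with miR-520f, 7.33, 6.89 and 6.89 in the negative control, and 6.35, 6.14 and 6.26 in non-transfected cells. The negative control arrays were all higher than the other 6, whereas miR-520f and non-transfected arrays overlapped. The fold change was -0.55 against the negative control (SE 0.14, limma adjusted p = 0.0105). Against non-transfected cells it was 0.23, with a 95% interval of -0.07 to 0.53 (limma adjusted p = 0.292). The negative control stood above non-transfected cells by 0.78 (limma adjusted p = 0.00311), so the answer for INSIG1 depends on the control chosen.

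SCAP, the escort of the SREBP factors, read 6.14, 6.21 and 6.08 with miR-520f, 5.89, 5.86 and 5.64 in the negative control and 6.06, 6.03 and 5.95 in non-transfected cells. All miR-520f arrays were above all control arrays, but by little, and SCAP was called against the negative control alone (0.35, SE 0.08, limma adjusted p = 0.00827). Against non-transfected cells its fold change was 0.13 (limma adjusted p = 0.326). SREBF1, which encodes the SREBP factor most tied to fatty acid genes, read 6.29, 6.47 and 6.25 with miR-520f, 6.38, 6.48 and 6.40 in the negative control and 6.88, 6.60 and 6.54 in non-transfected cells. It fell against non-transfected cells (-0.34, SE 0.10, limma adjusted p = 0.0256) and had a fold change of -0.08 against the negative control (limma adjusted p = 0.619). The SREBF1 call was lost without miR-520f replicate 1, miR-520f replicate 3 or non-transfected replicate 1 (adjusted p = 0.0925, 0.0979 and 0.0844), and median centring of the arrays ended it too (adjusted p = 0.0581).

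STARD4, a soluble carrier that moves cholesterol between membranes, read 4.07, 4.10 and 3.76 with miR-520f, all under every array median. The negative control read 4.94, 4.53 and 4.45, and non-transfected cells 4.87, 4.57 and 4.34. All miR-520f arrays lay below all control arrays, but the smallest gap was less than the range within each group, and the control groups overlapped. Replicates of STARD4 spread widely (SD 0.19, 0.26 and 0.27 in that order of groups). The log2 fold changes were -0.66 against the negative control (SE 0.16, limma adjusted p = 0.00867) and -0.62 against non-transfected cells (SE 0.16, limma adjusted p = 0.0134). Leaving out miR-520f replicate 3 or non-transfected replicate 1 ended the call against non-transfected cells (adjusted p = 0.0649 and 0.0548).

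**Figure D2:**
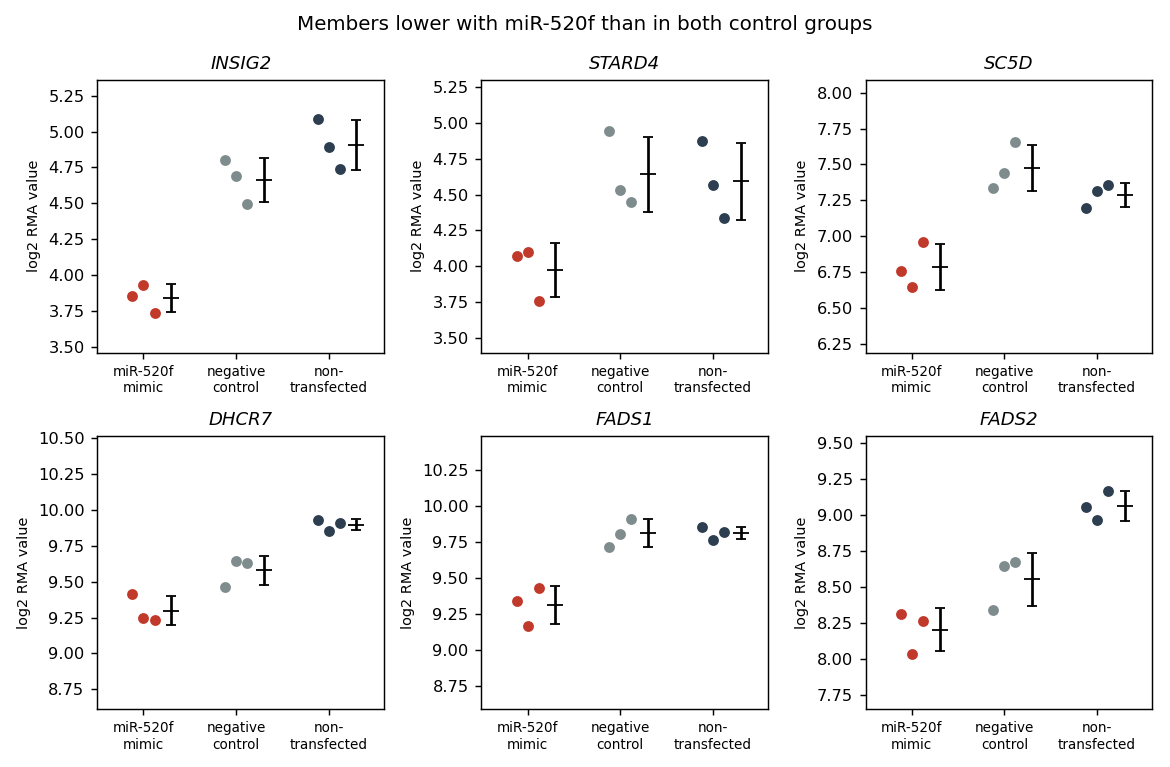
Log2 RMA value (vertical axis, each panel spanning the same range) of the 6 genes that were lower with miR-520f than in both control groups. Points are single arrays, and the bar beside them is the mean with its SD (n = 3 per group). In each panel the miR-520f points lie below all 6 control points, and in FADS2 and DHCR7 the negative control points lie between the other groups.

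The late sterol steps held both further falls of the cholesterol branch. SC5D, which introduces a double bond into the sterol ring just before the final reduction, read 6.76, 6.64 and 6.96 with miR-520f, 7.34, 7.44 and 7.65 in the negative control and 7.19, 7.31 and 7.36 in non-transfected cells. Its log2 fold changes were -0.69 against the negative control (SE 0.10, limma adjusted p = 0.000454) and -0.50 against non-transfected cells (SE 0.10, limma adjusted p = 0.00381). The call of SC5D against both controls held in all 18 alternative settings, as did those of INSIG2 and FADS1. DHCR7, the reductase that makes cholesterol from its last precursor, read 9.41, 9.25 and 9.23 with miR-520f, 9.46, 9.64 and 9.63 in the negative control and 9.93, 9.85 and 9.91 in non-transfected cells.

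For DHCR7 the smallest gap between a miR-520f and a negative control array was narrow, and its fold change was -0.28 against the negative control (SE 0.08, limma adjusted p = 0.0200) and -0.60 against non-transfected cells (SE 0.08, limma adjusted p = 0.000192). Between the controls the log2 fold change was -0.32, lower in the negative control (limma adjusted p = 0.0202). The call against the negative control was lost without miR-520f replicate 2 or 3 (adjusted p = 0.0739 and 0.0748) and without negative control replicate 2 or 3 (adjusted p = 0.0755 and 0.0603). The call between the controls was lost without any single one of the non-transfected replicates (adjusted p between 0.0535 and 0.0585).

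LSS, which closes squalene epoxide to lanosterol, and TM7SF2, a reductase of the sterol ring, lay between the controls. LSS read 6.58, 6.48 and 6.43 with miR-520f, 6.22, 6.28 and 6.16 in the negative control and 6.91, 6.85 and 6.69 in non-transfected cells, with no overlap between any groups. It rose against the negative control (0.27, SE 0.08, limma adjusted p = 0.0254) and fell against non-transfected cells (-0.32, SE 0.08, limma adjusted p = 0.0106). TM7SF2 read 6.40, 6.58 and 6.43 with miR-520f, 5.97, 6.29 and 6.29 in the negative control and 6.86, 6.75 and 6.75 in non-transfected cells, again without overlap.

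The fold changes of TM7SF2 were 0.29 against the negative control (limma adjusted p = 0.0490) and -0.32 against non-transfected cells (limma adjusted p = 0.0303). Calls of opposite sign against the controls were made for 2 of the 27 genes, where 0.436% of all genes had them. The negative control was lower than non-transfected cells in both, by log2 fold changes of -0.59 for LSS and -0.61 for TM7SF2 (limma adjusted p = 0.000658 and 0.00188). The TM7SF2 calls were close to the threshold and were lost under 13 of the 18 alternatives against the negative control and 8 against non-transfected cells. Each omission of a single array except negative control replicate 2 or 3 was among these in at least 1 of the comparisons (adjusted p between 0.0547 and 0.173). The LSS call against the negative control was lost without miR-520f replicate 1, miR-520f replicate 2 or negative control replicate 3 (adjusted p = 0.120, 0.0585 and 0.0768).

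MSMO1, which removes methyl groups from the sterol ring, read 9.05, 8.65 and 9.34 with miR-520f, 9.67, 9.59 and 9.72 in the negative control and 9.12, 9.14 and 9.05 in non-transfected cells. It was called lower against the negative control (-0.65, SE 0.14, limma adjusted p = 0.00442), and had a fold change of -0.08 against non-transfected cells (95% interval -0.39 to 0.22). SQLE, the epoxidase of squalene and a rate-limiting enzyme, read 8.67, 8.40 and 8.92 with miR-520f, 9.09, 8.98 and 8.96 in the negative control and 8.80, 8.75 and 8.82 in non-transfected cells. Its fold change was -0.35 against the negative control (SE 0.11, limma adjusted p = 0.0407) and -0.12 against non-transfected cells (limma adjusted p = 0.547). Replicate 2 of miR-520f was the lowest of the 9 arrays for both genes. The SQLE call was lost under 12 of 18 alternatives, including each omission of a single array other than miR-520f replicate 3 (adjusted p between 0.0535 and 0.145).

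EBP, a sterol isomerase, had fold changes of 0.28 against the negative control and 0.25 against non-transfected cells and was called in neither (limma adjusted p = 0.0546 and 0.0925). It passed in both with arrays centred on the median and without non-transfected replicate 1 (adjusted p = 0.0324 and 0.0274). NSDHL, which acts with MSMO1, had fold changes of 0.00 and 0.02, with 95% intervals of -0.22 to 0.23 and -0.20 to 0.25.

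In the mevalonate steps, 0 of 6 measured genes were called against both controls, where 18.0% of all genes were. A list of 6 is too short to set that count apart from the background. HMGCS1, which makes the precursor of mevalonate, read 7.20, 6.81 and 7.22 with miR-520f, 7.36, 7.25 and 6.83 in the negative control and 6.65, 6.53 and 6.56 in non-transfected cells. Cells given either mimic were thus above those given the reagent alone on all arrays, and the mimics overlapped. HMGCS1 was the 1 gene of the set that rose against non-transfected cells (0.49, SE 0.14, limma adjusted p = 0.0232). Against the negative control its fold change was -0.07 (95% interval -0.38 to 0.24). The negative control was above non-transfected cells by 0.56 (limma adjusted p = 0.0210).

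The rise of HMGCS1 with miR-520f was lost without miR-520f replicate 1 or 3 (adjusted p = 0.0900 and 0.0972) and without non-transfected replicate 2 or 3 (adjusted p = 0.0742 and 0.0650). MVK, the first kinase of mevalonate, was called lower against the negative control at the edge of the threshold (-0.29, limma adjusted p = 0.0499). That call was lost under 14 of 18 alternatives, among them all single omissions except negative control replicate 1 (adjusted p between 0.0574 and 0.161). PMVK, the next kinase, IDI1, which isomerises the isoprenoid unit, and FDPS, which joins the units to farnesyl diphosphate, had fold changes between -0.14 and 0.09 in both comparisons. Their 95% intervals all lay between -0.39 and 0.34. MVD, which makes the isoprenoid unit, had fold changes of 0.17 and -0.22 against the negative control and non-transfected cells and was called in neither (limma adjusted p = 0.149 and 0.0619).

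Fatty acid synthesis split by the control used. FASN, the fatty acid synthase, read 7.23, 7.19 and 6.96 with miR-520f, 7.09, 7.18 and 6.98 in the negative control and 7.90, 7.90 and 7.80 in non-transfected cells. Both mimic groups lay below the non-transfected arrays and overlapped each other. The fold change of FASN was -0.74 against non-transfected cells (SE 0.09, limma adjusted p = 9.34e-05) and 0.04 against the negative control (95% interval -0.16 to 0.24). ACACA, the carboxylase that makes malonyl-CoA, read 6.59, 6.63 and 6.74 with miR-520f, 5.96, 6.21 and 6.19 in the negative control and 6.76, 6.87 and 6.71 in non-transfected cells.

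ACACA rose against the negative control (0.54, SE 0.09, limma adjusted p = 0.000781) and had a fold change of -0.13 against non-transfected cells (95% interval -0.32 to 0.07). ACLY, which makes cytosolic acetyl-CoA from citrate, was called in neither, with fold changes of 0.10 and -0.01 and 95% intervals within -0.18 and 0.27.

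The desaturases and elongases held the remaining falls. FADS2 carries out the first desaturation of polyunsaturated fatty acids and FADS1 a later one. FADS1 read 9.34, 9.16 and 9.43 with miR-520f, 9.72, 9.81 and 9.91 in the negative control and 9.85, 9.76 and 9.82 in non-transfected cells. Its fold change was -0.50 in both comparisons (SE 0.09 each, limma adjusted p = 0.00102 against the negative control and 0.00107 against non-transfected cells). The control means of FADS1 were equal to the second decimal, at 9.81 each.

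FADS2 read 8.31, 8.03 and 8.27 with miR-520f, 8.34, 8.64 and 8.68 in the negative control and 9.06, 8.96 and 9.17 in non-transfected cells. The highest miR-520f array was just below the lowest negative control array. Its fold change was -0.35 against the negative control (SE 0.11, limma adjusted p = 0.0324) and -0.86 against non-transfected cells (SE 0.11, limma adjusted p = 0.000137). Median centring of the arrays ended the call against the negative control (adjusted p = 0.0610). So did omitting miR-520f replicate 2 or 3 (adjusted p = 0.132 and 0.0547) or negative control replicate 2 or 3 (adjusted p = 0.108 and 0.102).

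ELOVL6, which elongates saturated fatty acids, read 3.95, 3.99 and 3.96 with miR-520f, 4.38, 4.37 and 4.27 in the negative control and 4.22, 3.90 and 4.09 in non-transfected cells. It fell against the negative control (-0.37, limma adjusted p = 0.00657) and had a fold change of -0.10 against non-transfected cells (limma adjusted p = 0.497). The miR-520f values of ELOVL6 lay under every array median. SCD, which makes monounsaturated fatty acids, was bright and called in neither, with fold changes of -0.18 and -0.17 and 95% intervals between -0.37 and 0.02. ACSL1, which activates fatty acids to acyl-CoA, had fold changes of -0.22 and -0.12 and was called in neither (limma adjusted p = 0.263 and 0.597).

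Promoter windows of the 6 genes that fell against both controls were read, because these genes moved the same way. Most of the set is also known to answer to SREBP factors, whose site is a short element close to the start of transcription. For 4 of the 6 genes, 1 window each is shown. Windows of DHCR7 and FADS2 and the further windows of INSIG2 and SC5D are counted below but not shown. Each run is the 250 bases before an annotated start (RefSeq, GRCh38.p14), 5′ to 3′ on the strand of the gene, with capitals on every match, on either strand, to CACCCCA or CACNCCA (cores of the sterol regulatory element), CCAAT or GGGCGG (the GC box). Every CACCCCA match is also a CACNCCA match. The run of INSIG2 covers chr2:118088221-118088470 and that of SC5D chr11:121292521-121292770, both on the plus strand. The run of STARD4 covers chr5:111512536-111512785 and that of FADS1 chr11:61817004-61817253, both on the minus strand.
INSIG2: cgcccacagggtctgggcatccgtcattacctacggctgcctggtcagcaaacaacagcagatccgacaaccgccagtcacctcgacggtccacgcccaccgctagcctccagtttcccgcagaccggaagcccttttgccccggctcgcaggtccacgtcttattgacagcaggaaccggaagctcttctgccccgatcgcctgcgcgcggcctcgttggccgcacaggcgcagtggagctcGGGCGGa
SC5D: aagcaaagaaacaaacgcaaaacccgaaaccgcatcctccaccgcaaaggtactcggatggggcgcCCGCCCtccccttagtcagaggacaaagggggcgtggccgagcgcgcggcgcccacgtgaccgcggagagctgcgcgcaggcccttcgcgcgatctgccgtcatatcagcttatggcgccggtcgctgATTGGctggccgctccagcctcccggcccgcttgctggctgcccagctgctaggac
STARD4: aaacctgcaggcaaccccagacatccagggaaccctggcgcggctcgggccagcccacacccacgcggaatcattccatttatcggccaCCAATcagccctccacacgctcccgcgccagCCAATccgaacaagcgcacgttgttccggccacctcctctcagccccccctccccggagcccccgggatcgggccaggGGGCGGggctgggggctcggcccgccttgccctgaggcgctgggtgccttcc
FADS1: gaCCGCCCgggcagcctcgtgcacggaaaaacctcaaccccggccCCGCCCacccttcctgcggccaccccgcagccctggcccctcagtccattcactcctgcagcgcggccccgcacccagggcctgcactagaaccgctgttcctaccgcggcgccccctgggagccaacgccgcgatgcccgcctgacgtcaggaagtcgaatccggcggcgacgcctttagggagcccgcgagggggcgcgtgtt
The core CACCCCA was found in 12.8% of 39 windows (250 bases before to 50 after a start) of the set, and in 8.16% of 16426 windows of all tested genes. With the fourth base open, CACNCCA, the shares were 38.5% of the set and 17.5% of all windows. CCAAT was found in 59.0% against 34.7%, and the GC box in 82.1% against 57.8%. These windows came from 25 of the 27 genes, and some overlap where a gene has several starts, so the shares are a description. In the 10 windows of the 6 genes lower than both controls, CACCCCA was found in 0 and CACNCCA in 2. Those 2 are overlapping windows of SC5D that share 1 site, which lies just downstream of the run shown and so is not in it. The counts describe these letters in these windows alone. FADS1 and FADS2 are neighbours on chromosome 11, read from opposite strands with annotated starts 599 and 800 bases apart.

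The negative control mimic itself changed many genes of the set relative to the reagent alone. Negative control cells were higher for 3 and lower for 7 of the 27 genes, so 37.0% were called where the background was 15.3% (7.0% higher and 8.28% lower). Here too the share called among brighter genes was higher than this background, and the set exceeded it by less. Without the dimmest 25%, 2252 genes were called beside 2174 with them, although fewer genes were tested. The rises were INSIG1 (0.78), HMGCS1 (0.56) and MSMO1 (0.56). MSMO1 passed with a limma adjusted p of 0.0187. The falls were FASN (-0.78), ACACA (-0.66), TM7SF2 (-0.61), LSS (-0.59), FADS2 (-0.51), MVD (-0.40) and DHCR7 (-0.32).

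FASN and ACACA were among the firmest of these (SE 0.09 each, limma adjusted p = 0.000233 and 0.000589). MVD read 5.03, 5.08 and 4.99 in the negative control and 5.56, 5.37 and 5.36 in non-transfected cells, without overlap (limma adjusted p = 0.00681). FADS2 passed with a limma adjusted p of 0.00911. Genes of the sterol branch thus moved in both directions between the controls, and the called fatty acid genes were all lower in the negative control. The HMGCS1 call was lost without negative control replicate 1 or 2 (adjusted p = 0.0635 and 0.0723) or non-transfected replicate 2 or 3 (adjusted p = 0.0753 and 0.0611). The MSMO1 call was lost without non-transfected replicate 2 or 3 (adjusted p = 0.0513 and 0.0611). For 12 of the 27 genes the call of miR-520f differed between the controls, while 9 were called in neither comparison and 6 in both with the same sign. Of all 14232 genes, 8930 were called in neither and 2559 in both with the same sign, and the call differed for the rest. In 7 of the 12 genes of the set (HMGCS1, LSS, TM7SF2, MSMO1, INSIG1, ACACA and FASN) the controls themselves differed by a called amount, which is the test of that difference. In MVK, SQLE, SREBF1, SCAP and ELOVL6 they did not, so those 5 genes are not shown to respond differently against the controls.

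**Figure D3:**
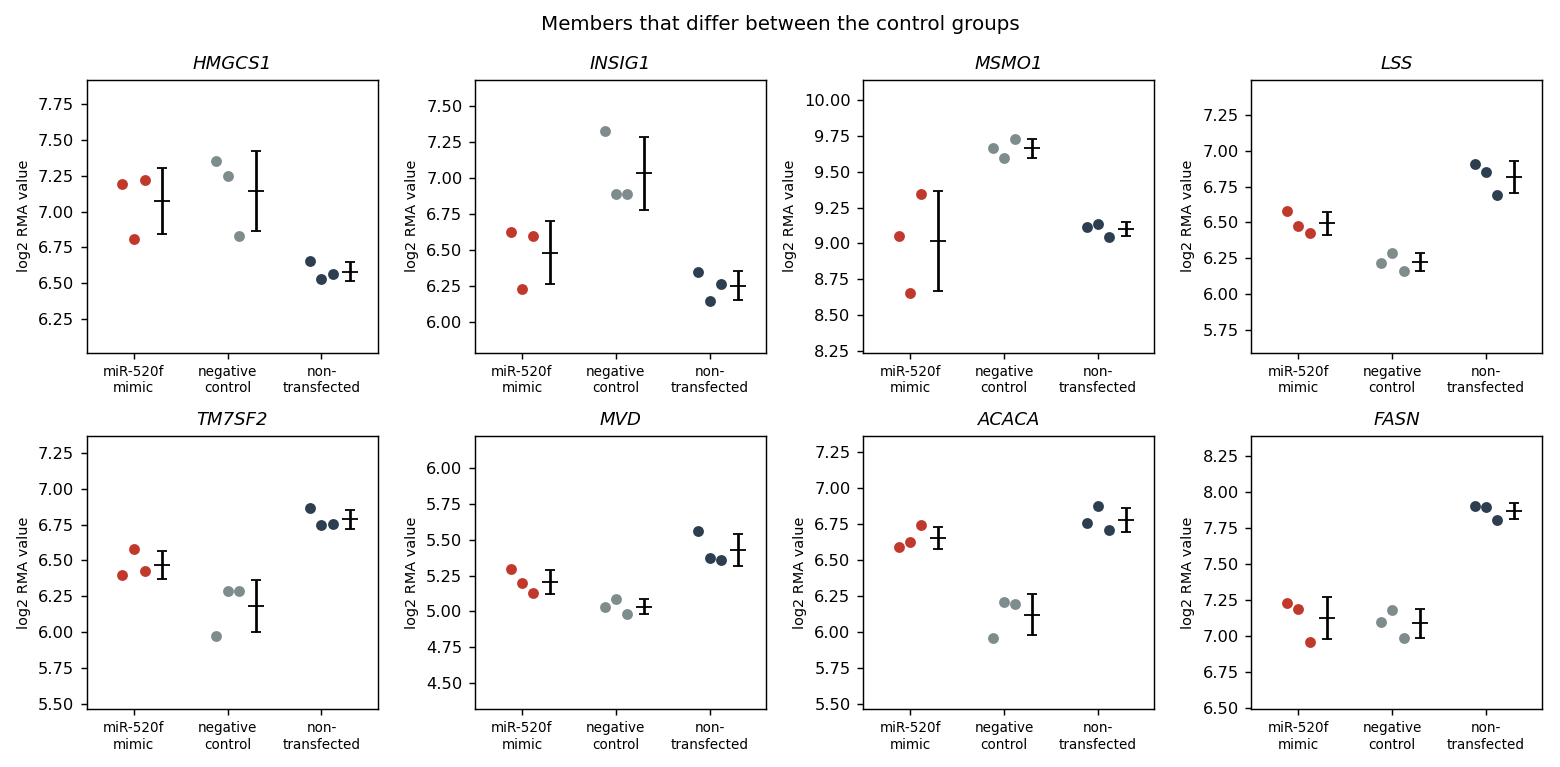
Log2 RMA value (vertical axis, each panel spanning the same range) of 8 of the 10 genes that differed between negative control and non-transfected cells, the other two being in the plot of genes lower than both controls. Points are single arrays and the bar beside them the mean with its SD (n = 3 per group). HMGCS1 and FASN have the miR-520f points beside the negative control, INSIG1 and MSMO1 beside the non-transfected cells, and LSS between the groups.

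Among the miR-520f arrays, replicate 2 was lowest in 11 of the 27 genes (40.7%, against 32.8% of all genes) and replicate 3 in 11 (40.7%, against 44.6%). Among the non-transfected arrays replicate 1 was lowest in 2 of 27 (7.41%, against 40.2% of all genes). The SD within a group ran from 0.02 for ELOVL6 to 0.35 for MSMO1, both with miR-520f, and the median SD over the 27 genes was 0.11 with miR-520f, 0.14 in the negative control and 0.08 in non-transfected cells.

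**Figure D4:**
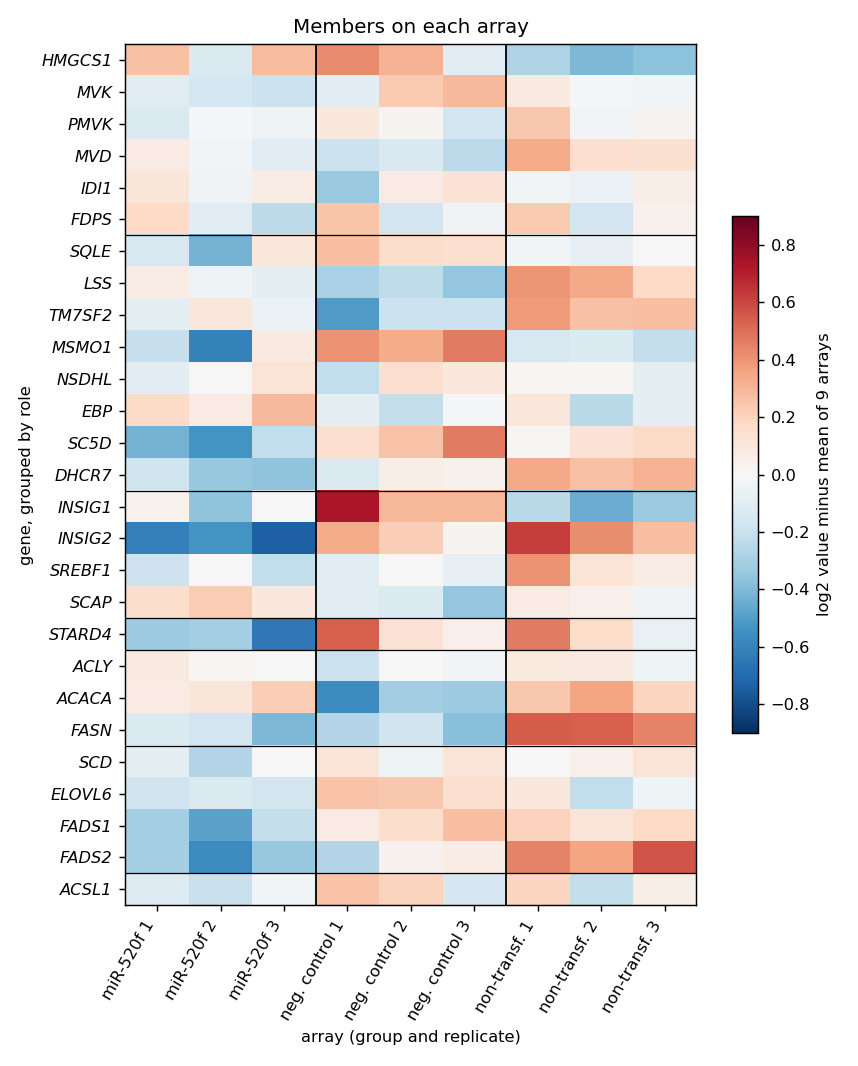
Log2 value of each of the 27 genes (rows, in groups by role) on each of the 9 arrays (columns) minus the mean of that gene over the 9 arrays. Red is above and blue below that mean. INSIG2, STARD4, SC5D and FADS1 are blue on all 3 miR-520f arrays, INSIG1 and MSMO1 are red on all 3 negative control arrays, and FASN is red on the non-transfected arrays alone.

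Genes of neighbouring lipid pathways were read from 7 further lists. Among 16 measured genes of further fatty acid synthesis and elongation, 8 were lower and 1 was higher than both controls, beside 8.61% and 9.37% of all genes. The largest fall was in ELOVL2, which elongates the long polyunsaturated fatty acids made by FADS1 and FADS2. It read 6.20, 5.91 and 6.23 with miR-520f, 8.12, 7.85 and 7.76 in the negative control and 7.57, 7.29 and 7.22 in non-transfected cells, a fold change of -1.80 against the negative control (SE 0.13, limma adjusted p = 2.20e-06) and of -1.24 against non-transfected cells (SE 0.13, limma adjusted p = 3.00e-05).

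MID1IP1, which activates acetyl-CoA carboxylase, fell by log2 fold changes of -1.23 and -0.83, and the desaturase relative FADS3 by -0.80 and -1.15, the first value being against the negative control and the second against non-transfected cells, here and in later pairs. In separate comparisons the list had 8 falls and 1 rise against the negative control and 8 falls and 2 rises against non-transfected cells.

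Of 11 further acyl-CoA synthetases and carriers, 3 were lower than both controls and 0 were higher, or 27.3% called beside 18.0% of all genes. ACSL4, which activates arachidonic acid, read 6.50, 6.41 and 6.55 with miR-520f, 7.53, 7.59 and 7.70 in the negative control and 7.35, 7.37 and 7.29 in non-transfected cells. ACSL4 differed by -1.12 from the negative control (SE 0.07, limma adjusted p = 1.20e-06) and by -0.85 from non-transfected cells (SE 0.07, limma adjusted p = 8.65e-06). SLC27A4, a fatty acid transport protein with synthetase activity, had -0.59 and -0.65, and the acyl-CoA binding protein DBI -0.30 and -0.37. The DBI call against both controls was lost under 12 of the 18 alternatives, with adjusted p up to 0.103.

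In the list of proteins that process SREBP factors, 2 of 6 measured genes were higher than both controls and 0 were lower. That is 33.3% of a short list beside 18.0% of all genes. MBTPS1, the Golgi protease that makes the first cut in SREBP, read 8.21, 8.29 and 8.25 with miR-520f, 6.29, 6.59 and 6.59 in the negative control and 7.95, 7.88 and 7.77 in non-transfected cells. Its fold change was 1.76 against the negative control and 0.38 against non-transfected cells (SE 0.09 each, limma adjusted p = 3.20e-07 and 0.00928). Between the controls it was -1.38, lower in the negative control (limma adjusted p = 1.07e-05). ERLIN2, which takes part in sterol-regulated degradation in the endoplasmic reticulum, had 0.36 and 0.50. Its control arrays, at 3.59 to 3.94, all lay under every array median (4.22 to 4.34).

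Of 16 genes of sterol uptake, storage and efflux, 3 were higher and 2 lower than both controls, or 31.2% beside 18.0% of all genes. STARD3, which moves cholesterol from late endosomes, had 0.64 and 0.61, the sterol-sensing nuclear receptor NR1H3 0.41 and 0.43, and the lipoprotein receptor SCARB1 -0.49 and -0.59. This count of 5 was 3 on omitting miR-520f replicate 1 or non-transfected replicate 1, and 2 on omitting miR-520f replicate 2. The NR1H3 call against the negative control was lost without miR-520f replicate 2 (adjusted p = 0.0541). Of 11 genes of the isoprenoid branch, PDSS1, which makes the side chain of coenzyme Q, was higher (0.63 and 0.45). DHDDS, which makes dolichol, was lower (-0.37 and -0.55). These 2 genes were 18.2% of that list, near the 18.0% of all genes. The DHDDS call against the negative control was lost without miR-520f replicate 2 (adjusted p = 0.0541).

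Of 10 measured genes of glycerolipid synthesis, 3 were lower and 1 was higher than both controls, or 40.0% beside 18.0% of all genes. AGPAT5 was the rise (0.41 and 1.07), and the triglyceride enzyme DGAT2 (-0.59 and -0.41) and AGPAT1 (-0.37 and -0.32) were among the falls. AGPAT1 and AGPAT5 both acylate lysophosphatidic acid. The calls against both controls were lost under 9 alternatives for DGAT2, 10 for AGPAT1 and 3 for AGPAT5. The count of 4 was 0 when miR-520f replicate 3 was omitted. It was 1 on omitting miR-520f replicate 2 or non-transfected replicate 1, and 2 on omitting miR-520f replicate 1 or non-transfected replicate 2. With arrays centred on the median it was 1.

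Of 18 genes of fatty acid oxidation, 3 were lower and 2 higher than both controls, or 27.8% beside 18.0% of all genes. PPARD, a nuclear receptor that switches on oxidation genes, read 5.37, 5.28 and 5.17 with miR-520f, 6.81, 6.58 and 6.46 in the negative control and 6.59, 6.38 and 6.41 in non-transfected cells (-1.34 with limma adjusted p = 3.75e-06, and -1.19 with limma adjusted p = 9.22e-06). SLC25A20, the mitochondrial carrier of acylcarnitines, read 5.38, 5.20 and 5.32 with miR-520f, 4.38, 4.33 and 4.18 in the negative control and 4.47, 4.41 and 4.41 in non-transfected cells (0.998 and 0.867). ACAA2, the last enzyme of mitochondrial oxidation, had 0.84 and 0.68.

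**Figure D5:**
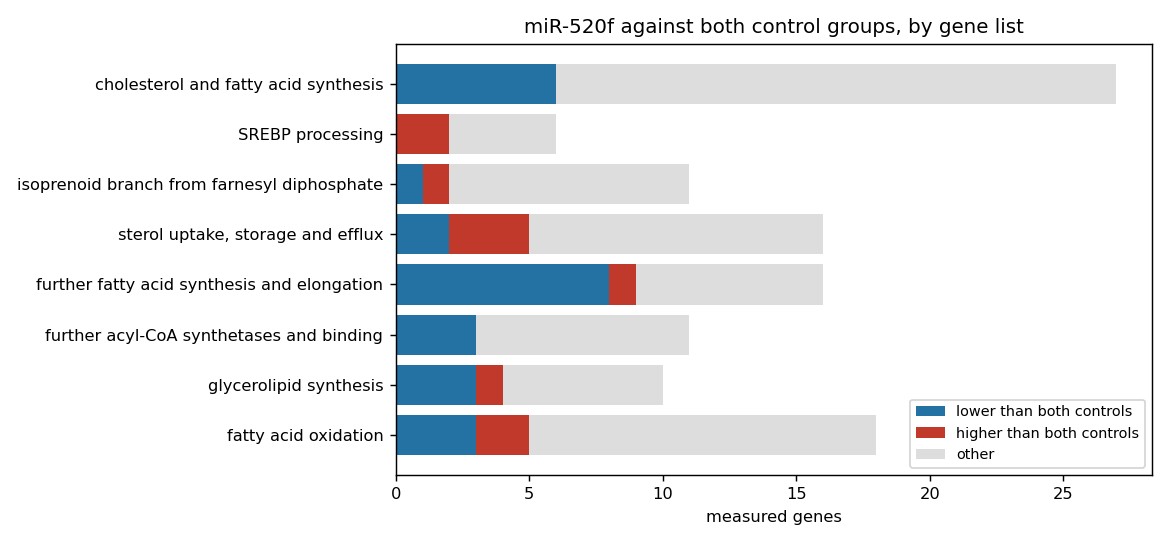
Number of measured genes (horizontal axis) in each list (rows) that were lower than both controls, higher than both controls, or neither, with miR-520f. The 27 genes of cholesterol and fatty acid synthesis have 6 falls and 0 rises, and further fatty acid synthesis and elongation 8 falls and 1 rise among 16 genes. Of all genes, 8.61% fell and 9.37% rose against both controls.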

How the data were processed

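Total RNA from 9 PANC-1 cultures was measured on Affymetrix arrays. The authors deposited log2 intensities for 22011 probe sets, made with RMA and Partek 6.6 per the submitters' processing notes, which also name the build hg18. Settings and probe-set filters are not given in the sources used here. Array annotation gave 14432 probe sets 1 gene symbol, 2408 several and 5171 none, and 14404 of the first were matched by Entrez ID to RefSeq GRCh38.p14. Probe sets with several symbols were not used. For 197 genes with more than 1 probe set the brightest was kept, leaving 14232 genes.

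A limma 3.58.1 model (R 4.3.3) with 1 mean per group and 6 residual degrees of freedom was fitted to all 9 arrays, with Benjamini-Hochberg adjustment over the 14232 genes and a threshold of 0.05. Its miR-520f contrasts were tested on simulated data with known changes. The submitters' design names ANOVA, and limma was used here in its place. The number of arrays limits the precision. Replicates are biological per the labels, with no word on how the cultures were kept apart, and the p-values may therefore reflect technical spread alone. The 27 genes were all named. Of each of 7 further lists, up to 3 genes called against both controls were named, by the larger of the weaker fold changes. The genes and lists were chosen with earlier results of these data known. There were 18 alternatives: 2 further scalings, probe-set and brightness filters, other variance models, fewer arrays, a replicate block and leaving out each array. Same-numbered replicates had deviations that correlated between -0.03 and 0.20 (4 of 9 over 0.1). Those with different numbers correlated between -0.44 and 0.33 (3 of 18 over 0.1). These values do not settle whether the numbers pair the samples, and the main model did not pair them.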

Additional observations from a re-analysis of the deposited data

How the results depend on the processing

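Of 2484 single-gene values under the 18 alternatives, 2259 kept their direction and their side of the threshold, 151 lost a call, 15 gained one, 59 changed sign without being called either way, and 0 changed sign with a call. The unmoderated fit, which estimates each gene's spread from its own arrays, called 9 genes of the set with miR-520f against the negative control (3 higher, 6 lower), 7 against non-transfected cells (0 higher, 7 lower), and 1287 of all genes between the controls. Leaving out single arrays gave 9 to 13 called genes of the set against the negative control (9 without miR-520f replicate 2), 7 to 11 against non-transfected cells (7 without miR-520f replicate 3), 7 to 10 between the controls and 3 to 6 against both. Over all genes these omissions gave 3197 to 4037 calls against the negative control, 3153 to 4491 against the reagent alone and 1394 to 2181 between the controls, the lowest of the last being without non-transfected replicate 2. Centring arrays on the median moved the split to 5 higher and 8 lower against the negative control, 2 and 8 against non-transfected cells, and, over all genes between the controls, 1198 higher and 928 lower beside 996 and 1178. With a replicate block, the set had 14 calls against the negative control, 12 against non-transfected cells, 10 between the controls and 7 against both (EBP higher, 6 lower). Over all genes the block gave 4159, 4060 and 2297 calls in the first 3 of these comparisons, beside 3996, 3927 and 2174 without it. Same-numbered samples did not deviate together in every pair (4 of 9 correlations over 0.1, against 3 of 18 for different numbers). Pairing was not settled, and the block is given here alone. The causes of these changes were not tested. The filter that leaves out the dimmest 25% of genes removed 0 of the 27.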
